A study of Homo sapiens with 4 samples.

Results

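The EGFR family comprises the receptor tyrosine kinases EGFR, ERBB2, ERBB3 and ERBB4, and it is described here with the EGF-like ligands AREG, EREG, HBEGF, TGFA and BTC and the cytoplasmic inhibitor ERRFI1. These 10 genes were chosen by name, with earlier results of these data known, and each was found among the 63677 genes listed for the series. BTC and TGFA were each listed in 2 rows, and the row with the higher mean over the libraries was used. The cells were MDA-MB-231, an established triple-negative breast cancer line, transfected with a control siRNA (siCt, 2 libraries) or with a pool of siRNAs against the receptor tyrosine kinase AXL (siAxl, 2 libraries). Both groups share the transfection, no untransfected cells are among the samples, and the time between transfection and harvest is not given in the sources used here. Nothing in the labels says that the libraries came from separate cultures, so the p-values measure only the spread between these libraries, which may be technical.

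In this family a ligand is made as a membrane-bound precursor, is cut from the cell surface by a protease, and then pairs receptors so that each phosphorylates the tail of the other. EGFR and ERBB4 bind ligands and carry active kinases, whereas ERBB2 has no known ligand and ERBB3 has little kinase activity of its own, so both signal mainly as partners. Triple-negative breast cancers lack ERBB2 amplification and often express EGFR, and AXL is known as a partner of EGFR in such cells. ERRFI1, also called MIG6, binds the kinase domain of EGFR and is itself induced by EGFR signalling.

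The libraries held between 39574387 and 44585773 reads, recovered from the normalized counts as described in the processing. Within each group the pair of libraries differed beyond counting noise (chi-square per gene of 21.6 in siCt and 19.6 in siAxl), more than 1 library listed again would show. The targeted gene AXL had 29189 and 30617 normalized counts in siCt and 8658 and 7141 in siAxl, and fell by 1.93 on the log2 scale (standard error 0.0918, limma adjusted p = 0.000585). All 5 markers of a mesenchymal breast line had reads in every library, and the summed level of these markers lay between 196180 and 201250 normalized counts in siCt and between 214620 and 215620 in siAxl. Of these, CAV1 rose by 0.34 on the log2 scale (limma adjusted p = 0.00908). VIM (0.12, adjusted p = 0.248), ZEB1 (0.20, 0.0602) and MSN (0.12, 0.189) did not pass. CD44 was lower in siAxl without overlap and did not pass either (-0.058, adjusted p = 0.548). Of 6 luminal markers only GATA3, CDH1 and EPCAM had at least 10 reads in every library, and CDH1, at 94.3 normalized counts or fewer in each, fell by 1.64 on the log2 scale (limma adjusted p = 0.00847). EPCAM, with 565 and 625 normalized counts in siCt and 711 and 771 in siAxl, was higher without overlap (log2 fold change 0.32, adjusted p = 0.0513), and GATA3 had -0.19 (adjusted p = 0.285). The summed level of the luminal markers ranged from 967 to 1021 in siCt and from 998 to 1077 in siAxl, and the part of these markers in the results below was not tested. Markers of endothelium summed to at most 1.08 normalized counts, with PECAM1 at 0, and those of fibroblasts to at most 56.3.

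EGFR, BTC, ERRFI1 and ERBB2 were higher in siAxl than in siCt, with the largest difference of the family in EGFR, at 1.93 times its siCt mean. Of the 10 genes, 9 passed the filter on low counts and were tested. By limma these 4 of the 9 rose, 0 fell, and 5 did not pass the threshold of an adjusted p under 0.05. Of all 16064 genes tested, 10.8% were called higher and 7.91% were called lower. At an unadjusted p under 0.05, 6 of the 9 were higher and 0 lower by limma, beside 18.1% and 15.9% of all genes tested. The edgeR test called the same number, 4 higher and 0 lower, and DESeq2 called 3 higher and 0 lower. Over all their genes edgeR called 11.5% higher and 7.92% lower, and DESeq2 called 11.5% and 8.57%. Without siAxl 1, and likewise without siAxl 2, limma called 2 of the 9 higher, EGFR and ERRFI1, beside 5.53% and 5.43% of all genes. A fit with 1 library left out has a single residual degree of freedom per gene. The median log2 fold change over the 9 was 0.25, against -0.0022 over all genes tested. In 7 of the 9 both siAxl libraries lay above both siCt libraries, in TGFA they lay below, and in AREG the groups overlapped. Such separation upward was found in 30.6% of all genes tested and downward in 30.5%. The values entered limma as log2(normalized count + 1), which makes the changes of weakly expressed genes look smaller than they are. With 2 libraries against 2 an exact permutation test cannot give a two-sided p under 0.333, so every adjusted p rests on a spread estimated jointly over genes.

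**Figure D1:**
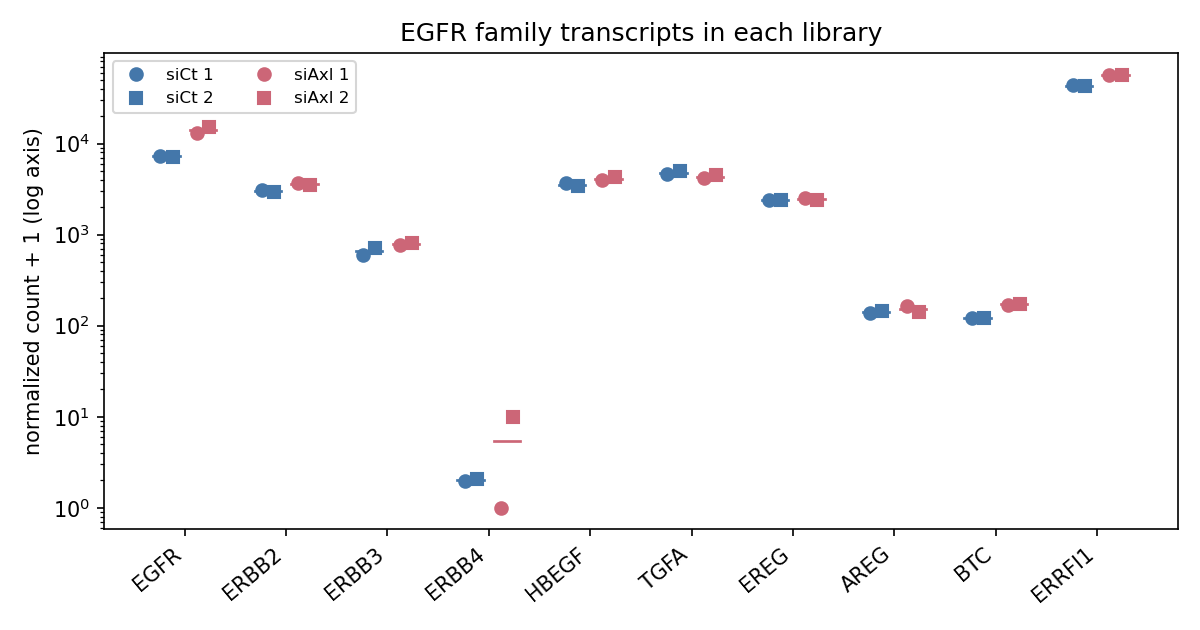
Normalized count plus 1 (log axis) of the 10 genes in each library, with circles for replicate 1, squares for replicate 2 and a line at each group mean (n = 2). The siAxl points of EGFR, at 12921 and 15003, sit well above the siCt points at 7355 and 7136, while ERBB4 stays under 10 normalized counts in every library.

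Among the receptors, EGFR (ENSG00000146648) had 7355 and 7136 normalized counts in the control libraries (siCt 1 and siCt 2) and 12921 and 15003 in siAxl 1 and siAxl 2. Both siAxl libraries were far above both siCt libraries, and the siAxl libraries differed from each other by 2082 against 219 between the siCt libraries. The mean rose from 7245 ± 155 (SD, n = 2) to 13962 ± 1472 (SD, n = 2), which is 1.93 times the siCt mean. The log2 fold change was 0.94 (95% interval 0.76 to 1.13, standard error 0.0774, limma adjusted p = 0.00166). It exceeded in size that of 97.8% of all genes tested. EGFR passed the threshold under every alternative tried, with values between 0.83 and 1.05 when single libraries were left out. EGFR-AS1, a noncoding gene on the opposite strand that shares 186 exon bases with EGFR, was listed at 0 in every library.

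ERBB2 (ENSG00000141736), the preferred partner of the other receptors, had 3089 and 2949 normalized counts in siCt 1 and siCt 2 and 3680 and 3536 in siAxl 1 and siAxl 2. The groups did not overlap, and ERBB2 rose by 0.26 on the log2 scale (95% interval 0.12 to 0.40, standard error 0.0584, limma adjusted p = 0.0258), from 3019 ± 98.5 to 3608 ± 102 (SD, n = 2 in each). This call was lost without siCt 2 (log2 fold change 0.22, limma adjusted p = 0.0763), without siAxl 1 (0.23, 0.143) and without siAxl 2 (0.29, 0.070). It was also lost when every gene with at least 1 read was tested (adjusted p = 0.0724). ERBB2 shares 571 exon bases with MIEN1 and 194 with PGAP3, both on the opposite strand, and whether reads were counted by strand is not given in the sources used here. MIEN1 had a log2 fold change of -0.22 (limma adjusted p = 0.0619) and PGAP3 of 0.30 (adjusted p = 0.0712), so neither neighbour passed the threshold.

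ERBB3 (ENSG00000065361), the receptor with little kinase activity, had 601 and 717 normalized counts in siCt 1 and siCt 2 and 760 and 803 in siAxl 1 and siAxl 2. The siAxl values were higher without overlap, but the 2 siCt libraries differed by 116, nearly as much as the difference between the group means of 659 ± 82.1 and 781 ± 30.6 (SD, n = 2 in each). The log2 fold change of 0.25 (95% interval 0.0084 to 0.49, limma adjusted p = 0.136) did not pass. It ran from 0.12 without siCt 1 to 0.38 without siCt 2, and in the latter case ERBB3 passed (adjusted p = 0.0183). ERBB4 (ENSG00000178568), the second receptor with both ligand binding and an active kinase, had 1 read in each siCt library, 0 in siAxl 1 and 9 in siAxl 2. Scaled to the depth of the library, the level in siAxl 2 was 0.202 CPM (exact Clopper-Pearson 95% interval 0.0924 to 0.383). It was 0.0226 CPM in siCt 1 (interval 0.000572 to 0.126) and 0.0253 CPM for the other control library (interval 0.00064 to 0.141). For the 0 in siAxl 1 the same two-sided interval reaches 0.0827 CPM, and the one-sided limit of 3 reads is 0.0673 CPM. These limits cover counting error only, and ERBB4 was under the filter and was not tested.

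**Figure D2:**
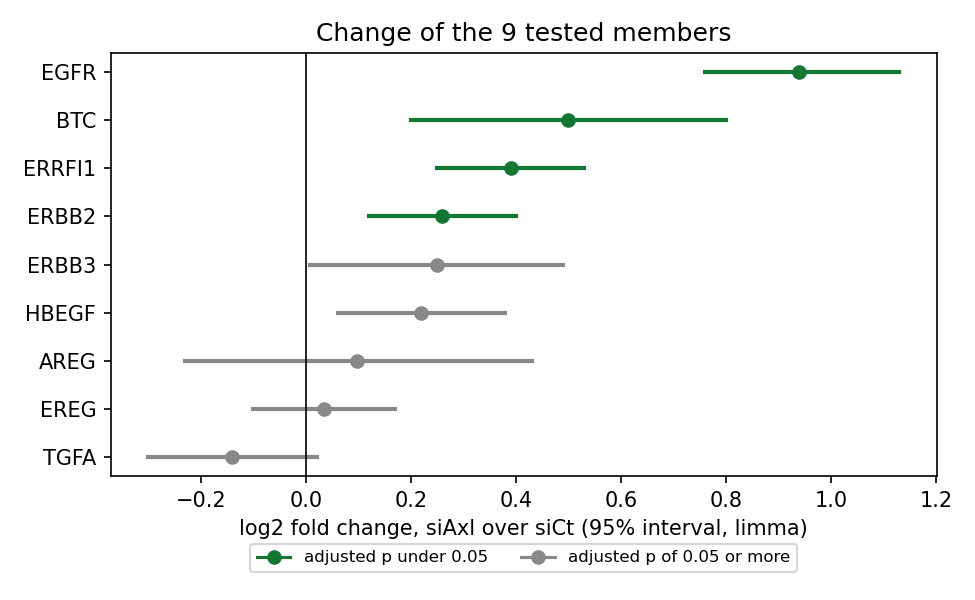
Log2 fold change of siAxl over siCt for the 9 tested genes (points) with 95% intervals from limma (lines), green where the adjusted p was under 0.05. EGFR lies furthest to the right at 0.94, and TGFA is the only one below 0, at -0.14.

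Per length of exon the receptor transcripts shifted towards EGFR. With normalized counts divided by the exon length of each gene, EGFR made up 61.6% and 60.9% of the summed level of the 4 receptors in siCt 1 and siCt 2, and 70.1% and 73.5% in siAxl 1 and siAxl 2. The mean share went from 61.3% ± 0.48 to 71.8% ± 2.4 (SD, n = 2 in each). The share of ERBB2 went from 31.0% ± 0.59 to 22.6% ± 2.3 although its own level was higher, and that of ERBB3 from 7.73% ± 1.1 to 5.58% ± 0.18. The libraries of the groups did not overlap for any of these 3 shares. The shares are parts of the same sum, so a larger share of EGFR lowers the others, and these are not 3 separate results. With the longest transcript as the length, the share of EGFR was 50.5% in siCt and 62.1% in siAxl, so its level depends on the length used, and the difference less so (10.5 and 11.6 percentage points). AXL was 9.64 and 10.4 times as abundant per length as EGFR in siCt 1 and siCt 2, and 1.63 and 1.16 times in siAxl 1 and siAxl 2. With the longest transcript these ratios were 8.23 and 8.9 in siCt and 1.39 and 0.987 in siAxl, so in siAxl the order of the 2 receptors was not settled by these data.

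**Figure D3:**
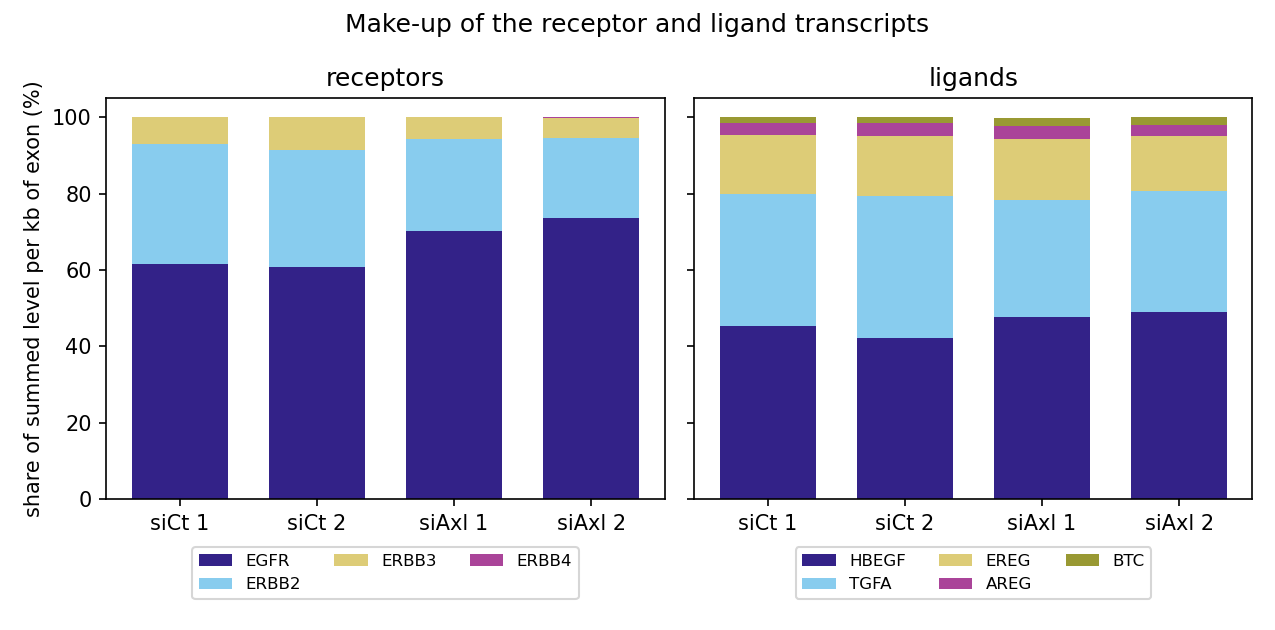
Share of each gene in the summed level per kb of exon of the 4 receptors (left) and of the 5 ligands (right), in percent, for each library. The EGFR segment grows from 61.6% and 60.9% in siCt to 70.1% and 73.5% in siAxl, and the ligand segments move less, with HBEGF between 42.2% and 49.1%. AREG enters as counted, and its level is uncertain.

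Of the 5 ligands, limma called BTC (betacellulin, which binds both EGFR and ERBB4), a call that depended on the settings, and differences between ligands were not tested. BTC (ENSG00000174808) had 121 and 119 normalized counts in siCt 1 and siCt 2 and 167 and 173 in siAxl 1 and siAxl 2. The groups did not overlap. The replicates differed by 1.63 and 5.89, less than counting error alone would typically give at so few reads, so these gaps are no measure of the separation. The log2 fold change was 0.50 (95% interval 0.20 to 0.80, standard error 0.129, limma adjusted p = 0.0375). The number of reads was small, from 110 to 176 per library, and the call was lost with DESeq2 (adjusted p = 0.15) and when every gene with at least 1 read was tested (0.0798). It was lost as well without siCt 2 (log2 fold change 0.49, adjusted p = 0.0786), without siAxl 1 (0.52, 0.134) and without siAxl 2 (0.47, 0.161). The difference itself stayed between 0.47 and 0.52 with single libraries left out.

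HBEGF (ENSG00000113070), a heparin-binding ligand of EGFR and ERBB4, had the highest level per length of the 5 ligands as counted. The level of AREG is uncertain, as described below. It had 3672 and 3404 normalized counts in siCt 1 and siCt 2 and 3955 and 4289 in siAxl 1 and siAxl 2. The siAxl libraries were higher, and the log2 fold change of 0.22 (95% interval 0.060 to 0.38, limma adjusted p = 0.0637) did not pass, although it did without siCt 1 (0.27, adjusted p = 0.0155). TGFA (ENSG00000163235), a ligand of EGFR, had 4595 and 4947 normalized counts in siCt 1 and siCt 2 and 4151 and 4519 in siAxl 1 and siAxl 2. The siAxl values were lower, but siCt 1 and siAxl 2 differed by less than the replicates of either group, and the log2 fold change of -0.14 (95% interval -0.30 to 0.021, limma adjusted p = 0.199) did not pass. Of the summed level per kb of the 5 ligands, HBEGF made up 43.8% ± 2.2 in siCt and 48.5% ± 0.9 in siAxl (SD, n = 2 in each), and TGFA 35.9% ± 2 and 31% ± 0.66. BTC made up 1.59% ± 0.0097 and 2.14% ± 0.03, and with its few reads SDs this small do not measure counting error. All these shares use the level of AREG as counted.

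EREG (ENSG00000124882, epiregulin) had 2380 and 2379 normalized counts in siCt 1 and siCt 2 and 2494 and 2382 in siAxl 1 and siAxl 2, a log2 fold change of 0.035 (95% interval -0.10 to 0.17, limma adjusted p = 0.727). AREG (ENSG00000109321, amphiregulin) had 137 and 145 in siCt 1 and siCt 2 and 162 and 141 in siAxl 1 and siAxl 2, and the groups overlapped. Its log2 fold change was 0.097 (95% interval -0.23 to 0.43, limma adjusted p = 0.677), and was -0.0060 without siAxl 1. The interval of EREG leaves out a change as large as that of EGFR, BTC or ERRFI1, whereas that of AREG, which had 134 to 167 reads per library, reaches almost to the value of BTC. AREGB, a near-identical copy of AREG in this genome build, was listed at 0 in every library. How reads that fit both copies were counted is not given in the sources used here, so the level of AREG is uncertain.

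EREG, AREG and BTC follow each other on chromosome 4, in the order EPGN, EREG, AREG and BTC along the protein-coding genes of RefSeq. Only the last of these neighbours passed the threshold, and EPGN had 2 to 4 reads per library and was not tested. The sequences upstream of these 3 genes and of EGFR are shown because EGFR and BTC passed the threshold and the neighbours of BTC did not, a contrast between genes that was not itself tested. Each is the 250 bases before the RefSeq start (GRCh38.p14, 5′ to 3′ in the direction of the gene), and capitals mark the GC box spelled GGGCGG and, likewise on either strand, the TATA box spelled TATAAA.
EGFR (chr7:55018767-55019016, + strand): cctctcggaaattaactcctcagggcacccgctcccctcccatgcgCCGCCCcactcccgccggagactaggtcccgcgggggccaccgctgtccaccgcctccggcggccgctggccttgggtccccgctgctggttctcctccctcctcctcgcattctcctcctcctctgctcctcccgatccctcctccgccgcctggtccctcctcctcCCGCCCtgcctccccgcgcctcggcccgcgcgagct
EREG (chr4:74364895-74365144, + strand): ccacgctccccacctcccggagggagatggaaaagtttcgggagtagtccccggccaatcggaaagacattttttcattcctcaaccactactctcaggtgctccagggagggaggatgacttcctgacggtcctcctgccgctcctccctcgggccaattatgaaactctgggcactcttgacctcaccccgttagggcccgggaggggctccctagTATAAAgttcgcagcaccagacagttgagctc
AREG (chr4:74444886-74445135, + strand): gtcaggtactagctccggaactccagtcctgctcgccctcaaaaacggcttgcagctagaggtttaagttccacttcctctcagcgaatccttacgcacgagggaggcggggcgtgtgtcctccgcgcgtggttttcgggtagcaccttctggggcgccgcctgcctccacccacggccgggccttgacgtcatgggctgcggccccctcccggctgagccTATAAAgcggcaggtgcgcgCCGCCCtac
BTC (chr4:74794524-74794773, - strand): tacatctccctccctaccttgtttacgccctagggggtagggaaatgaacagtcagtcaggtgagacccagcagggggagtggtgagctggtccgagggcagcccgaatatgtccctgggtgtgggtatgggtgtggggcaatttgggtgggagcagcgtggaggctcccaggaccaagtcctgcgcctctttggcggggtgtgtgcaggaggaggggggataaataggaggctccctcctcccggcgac

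The word TATAAA stood 32 bases before the start of EREG and 29 before that of AREG. Only exact spellings were searched, near ones were not counted, and by this rule the word was absent from the windows of EGFR and BTC. It occurred in 10.7% of 35116 windows of this length in RefSeq and in 2 of the 9 family windows that could be matched (ERBB3 was not among them). The GC box was found in 2 copies in EGFR, 5 in HBEGF and 3 in TGFA, in 1 copy in ERBB4, AREG and ERRFI1, and in none in ERBB2, EREG and BTC, against 42.6% of all windows. Of the other words searched on both strands, CCGGAAG (an Ets word) occurred in ERBB2 alone, in 2 copies, against 8.52% of all windows. TGAGTCA (an AP-1 word) and CACGTG (an E box) occurred in 0 of the 9, against 4.2% and 6.34% of all windows. In the 4 windows shown no match of one word overlapped another match, CACGTG reads the same on both strands and was counted once, and a match is a description of the letters only. The windows of EGFR, HBEGF, TGFA and ERRFI1 were rich in G and C (73.6% to 76.4%), above at least 86.9% of all windows, while those of EREG and BTC, at 58% and 62%, were near the median of 58%.

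ERRFI1 (ENSG00000116285) was by far the most abundant of the 10 transcripts and rose in siAxl. It had 43696 and 42917 normalized counts in siCt 1 and siCt 2 and 56409 and 57018 in siAxl 1 and siAxl 2. The replicates differed by 779 and 609, far less than the difference between the group means of 43306 ± 551 and 56713 ± 431 (SD, n = 2 in each). The log2 fold change was 0.39 (95% interval 0.25 to 0.53, standard error 0.0577, limma adjusted p = 0.00678), or 1.31 times the siCt mean. It passed under every alternative tried and lay between 0.38 and 0.40 with single libraries left out. AL034417.4, an antisense gene of the reference annotation, shares 155 exon bases with ERRFI1 and was not used here.

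Per kb of exon, the order of levels in siCt was ERRFI1 (10345 ± 132 normalized counts per kb, SD, n = 2), HBEGF (1172 ± 62.6), TGFA (961 ± 50.2), EGFR (579 ± 12.3), EREG (416 ± 0.070), ERBB2 (293 ± 9.54), AREG (85.7 ± 3.46), ERBB3 (72.9 ± 9.08) and BTC (42.6 ± 0.41), with ERBB4 near 0. In siAxl EGFR, at 1115 ± 118, stood above TGFA, at 873 ± 52.4, and with this length it was the only change of order of the means. AREG, at 91.8 ± 9.3, and ERBB3, at 86.4 ± 3.39, overlapped between libraries in siAxl and cannot be ordered there. AREG is placed by its reads as counted, and its level is uncertain because of AREGB. With the longest transcript as the length, EREG and ERBB2 changed places in both groups (515 and 612 in siCt), so their order is not settled. EGFR again passed TGFA with that length (738 and 1107 in siCt, 1422 and 1006 in siAxl). The means of AREG and ERBB3 then also changed order, from 114 and 111 in siCt to 122 and 132 in siAxl. Among all genes tested, the level per kb of ERRFI1 lay above 99.6%, that of HBEGF above 89.9%, that of EGFR above 83.7% and that of BTC above 29.1%.

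The 3′ untranslated region (UTR) of EGFR holds the word CACATCA, which had been singled out earlier on these same libraries and is therefore given as a description. Of the 9 tested genes EGFR alone carries it, once in 6011 bases of its longest 3′ UTR in GENCODE 29 (ENST00000275493), starting at base 815 after the stop codon. ERBB4, which was not tested, carries it once at base 1703. The sites are shown 5′ to 3′ with the word in capitals.
EGFR: agagaggatgaCACATCAaataataactc
ERBB4: aaagggggcctCACATCAataattaggaa
Of the tested genes with a 3′ UTR, 1507 (11.6%) carried the word, and 26.5% of these were called higher, against 11% of the 11481 genes without it. The shares called lower were 5.84% and 9.79%, and the median log2 fold changes 0.10 and -0.010. Among genes with a 3′ UTR of at least 3000 bases, as EGFR has, 22.2% of 812 with the word and 12.3% of 2020 without it were called higher, and 7.14% and 8.37% lower. Their medians were 0.059 and -0.0033. The siRNA sequences are not given in the sources used here, and the part of the word in the change of EGFR was not tested.

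The other ligands of the family were low or did not pass. NRG1, a neuregulin that binds ERBB3 and ERBB4, had 2318 and 2269 normalized counts in siCt 1 and siCt 2 and 2078 and 1939 in siAxl 1 and siAxl 2, a log2 fold change of -0.19 (95% interval -0.34 to -0.043, limma adjusted p = 0.0773). EGF itself had -0.16 (adjusted p = 0.387), and the neuregulin NRG2 had 0.33 (adjusted p = 0.216) at 74 to 104 reads per library. EPGN, NRG3 and NRG4 were not tested, and NRG3 had 0 reads in every library. None of the 3 tested genes, NRG1, EGF and NRG2, was called by limma, by edgeR or by DESeq2. Of all genes tested, limma called 10.8% higher and 7.91% lower.

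The proteases that release the ligands and their carriers included 3 of 5 genes called higher and 0 lower by limma, beside 10.8% and 7.91% of all genes tested. ADAM17, the main sheddase of HBEGF, TGFA, AREG and EREG, had 3630 and 3816 normalized counts in siCt 1 and siCt 2 and 4655 and 4827 in siAxl 1 and siAxl 2, and rose by 0.35 on the log2 scale (standard error 0.0574, limma adjusted p = 0.00947). RHBDF2 (iRhom2), which carries ADAM17 to the cell surface, had 2736 and 2596 in siCt 1 and siCt 2 and 3587 and 3463 in siAxl 1 and siAxl 2, and rose by 0.40 (standard error 0.0592, adjusted p = 0.00661). Both kept their calls whichever library was left out. ADAM10, the main sheddase of BTC, rose by 0.26 (adjusted p = 0.0344), a call lost without siCt 1, siAxl 1 or siAxl 2 (adjusted p of 0.12, 0.0771 and 0.149). RHBDF1 (iRhom1) had 0.29 (adjusted p = 0.139), and passed without siCt 1 (0.43, adjusted p = 0.00013) and without siAxl 2 (0.43, 0.0473). FRMD8, which stabilizes the iRhoms, had -0.16 (adjusted p = 0.134). The median of the 5 was 0.29.

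Adaptors and effectors that dock on the phosphorylated receptors included 3 of 15 genes called higher and 0 lower by limma (10.8% and 7.91% of all genes), and their median log2 fold change was 0.063. The called genes were GAB2, a scaffold of the GRB2 complex (0.42, limma adjusted p = 0.00816), NCK2 (0.42, adjusted p = 0.0165) and VAV2, a guanine nucleotide exchange factor (0.31, adjusted p = 0.0221). NCK2 lost its call without siAxl 2 (adjusted p = 0.0549), and VAV2 without siCt 2, siAxl 1 or siAxl 2 (0.0529, 0.111 and 0.0648).

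Of 14 tested genes on a list of inhibitors and other regulators of the receptors, 3 were called higher and 3 lower (10.8% and 7.91% of all genes). The median was -0.022. UBASH3B and LRIG3 are not settled as inhibitors, so these counts describe the list and give no direction of inhibition. How each of these genes acts on the receptors in these cells was not tested. LRIG1, a transmembrane protein that promotes the degradation of ERBB receptors, had 1061 and 892 normalized counts in siCt 1 and siCt 2 and 1471 and 1535 in siAxl 1 and siAxl 2, and rose by 0.63 (standard error 0.0936, limma adjusted p = 0.00688). CBLB, a ubiquitin ligase of activated EGFR, rose by 0.32 (adjusted p = 0.0167), and UBASH3B, a phosphatase that binds CBL, by 0.27 (adjusted p = 0.0216). SOCS4, which targets EGFR for degradation, fell by 0.33 (adjusted p = 0.00913), SOCS3 fell by 0.35 (adjusted p = 0.0154) and LRIG3 fell by 0.37 (adjusted p = 0.048). LRIG1 and SOCS4 kept their calls whichever library was left out. CBLB lost its call without siAxl 1 or siAxl 2 (adjusted p of 0.0967 and 0.0553), and SOCS3 without siAxl 2 (0.074). UBASH3B lost it without siCt 2, siAxl 1 or siAxl 2 (0.0525, 0.0506 and 0.112), and so did LRIG3 (0.206, 0.14 and 0.128). LRIG3 was also not called by edgeR (adjusted p = 0.0535), by DESeq2 (0.0673) or under TMM scaling (0.0537). CBLC was under the filter on low counts.

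Of 8 genes of endocytic sorting, USP8, a deubiquitinase acting on internalized EGFR, rose by 0.44 (limma adjusted p = 0.00966), and SH3KBP1, an adaptor that binds CBL, rose by 0.30 (adjusted p = 0.0123). SH3KBP1 lost its call without siAxl 2 (adjusted p = 0.0696). By limma 2 of the 8 were thus called higher and 0 lower (10.8% and 7.91% of all genes), and the median was -0.047. Of 17 early transcripts of the EGFR-ERK response, 2 were called higher and 3 lower (10.8% and 7.91% of all genes), and the median was 0.058. IER3, an early response gene, had 51923 and 57252 normalized counts in siCt 1 and siCt 2 and 34393 and 32154 in siAxl 1 and siAxl 2, and fell by 0.71 (standard error 0.0722, limma adjusted p = 0.00241), a call kept whichever library was left out. SPRED1, an inhibitor of RAS signalling, fell by 0.31 (adjusted p = 0.0238), and PHLDA1 fell by 0.26 (adjusted p = 0.0271). JUNB, a subunit of AP-1, rose by 0.33 (adjusted p = 0.0166) and DUSP5, a nuclear ERK phosphatase, by 0.23 (adjusted p = 0.036). JUNB lost its call without siAxl 1 or siAxl 2 (adjusted p of 0.0771 and 0.0764). Without siCt 2, siAxl 1 or siAxl 2 the calls of SPRED1 (0.0787, 0.0736 and 0.0685), PHLDA1 (0.173, 0.109 and 0.131) and DUSP5 (0.055, 0.0578 and 0.204) were lost. Over the 6 pathway lists together, 13 of 62 tested genes were called higher and 6 lower, beside the 10.8% and 7.91% of all genes tested. These counts were lower with either siAxl library left out, and so were the calls over all genes. Such a fit leaves a single library in that group.

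**Figure D4:**
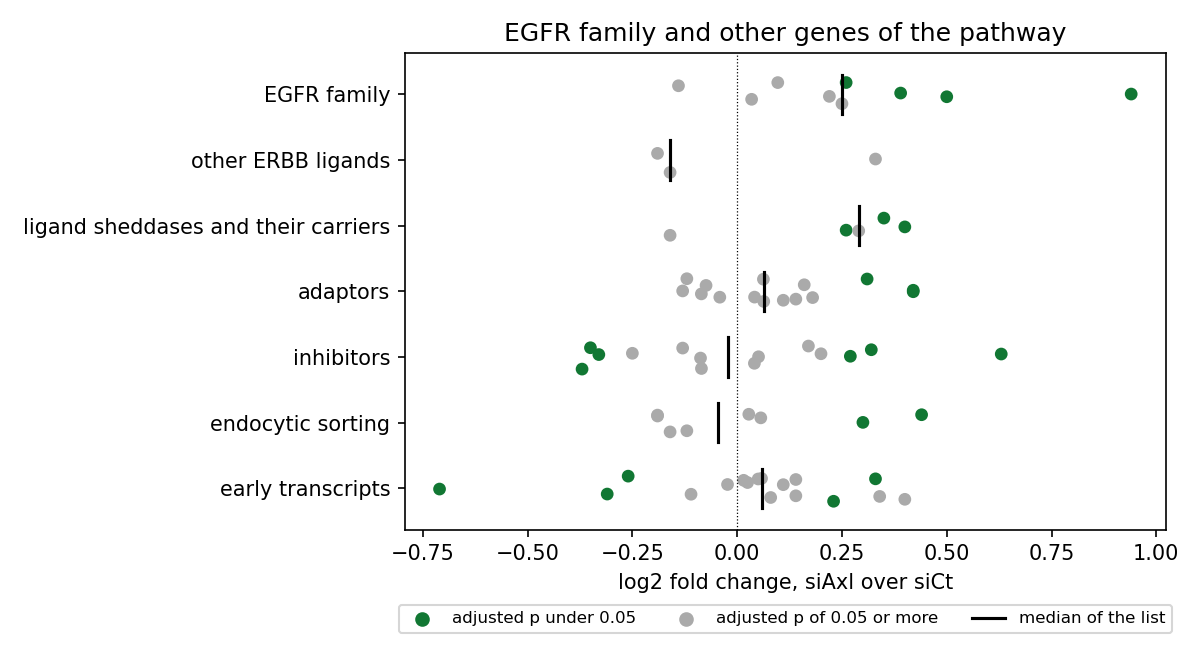
Log2 fold change of siAxl over siCt for each tested gene of the EGFR family and of 6 pathway lists (points, spread vertically for visibility), green where the limma adjusted p was under 0.05, with a black line at the median of each list. EGFR (0.94) stands furthest right and IER3 (-0.71) furthest left, and the medians of the lists lie between -0.16 and 0.29.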

How the data were processed

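RNA of MDA-MB-231 cells (2 siCt and 2 siAxl libraries) was sequenced on an Illumina HiSeq. The submitters' processing notes name CASAVA 1.8, TopHat2 2.0.10, HTSeq 0.5.3, DESeq2 1.4.5 and GRCh37, and the annotation release and strand setting are not given in the sources used here. The authors deposited 1 table of signal values, gene counts divided by DESeq2 size factors. These gave whole reads for 100% of values (tolerance 0.01), and the recovered totals were 39574387 to 44585773 reads. The same table holds the authors' own DESeq2 comparison (log2 fold changes, p-values, and a standard error and test statistic recorded as score columns), and none of these deposited values was used.

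Normalized counts were tested as log2(value + 1) with limma 3.58.1 (R 4.3.3, moderated with a trend) on 16064 genes kept by filterByExpr of edgeR 4.0.16, which left out 47613. The p-values were adjusted over all genes tested by the method of Benjamini and Hochberg, and a gene under 0.05 was called. edgeR called 3122 genes and DESeq2 1.42.0 called 2598 on the recovered reads. The other alternatives were 2 scalings (TMM and library totals alone), pseudocounts of 0.5 and 8, a filter of at least 1 read, the replicate number as a block, each library left out, and another gene length. The limma step was tested on simulated data. Exon lengths and 3′ UTRs came from GENCODE 29 (GRCh38), matched by identifier for 52526 of 63677 genes (82.5%), and promoter windows from RefSeq (GRCh38.p14). Exact binomial intervals cover counting error only.

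The text names the 10 family genes and AXL, every other ERBB ligand, every sheddase or carrier, and from each other list up to 3 called genes with the smallest adjusted p in each direction. The genes that share exons with ERBB2 and the marker genes were named beside the results they touch, and a further marker list is not reported here. The members, lists and the 3′ UTR word were chosen with earlier results of these data known.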

Additional observations from a re-analysis of the deposited data

How the results depend on the processing

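EGFR, ERRFI1 and AXL kept their direction and their call under all 12 alternatives. Testing every gene with at least 1 read, 27108 genes, lowered the calls from 3006 to 1097 (757 higher, 340 lower), those of the family to 2 (2 higher, 0 lower) and those of the pathway lists from 19 to 11 (8 higher, 3 lower). ERBB2 (log2 fold change 0.26, limma adjusted p = 0.0724) and BTC (0.50, 0.0798) were then not called, and neither were ADAM10, NCK2, VAV2, UBASH3B, LRIG3, DUSP5, SPRED1 and PHLDA1. By DESeq2 BTC had a log2 fold change of 0.50 (adjusted p = 0.15). Scaling to library totals alone moved the split of calls over all genes from 1735 higher and 1271 lower to 1536 and 1745, and the median of all genes from -0.00218 to -0.0312. The cause of these changes was not tested.

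The libraries share replicate numbers, but the labels do not say what a number stands for. The deviations of siCt 1 and siAxl 1 from their group means correlated at 0.271 over the 16064 genes tested. With 2 libraries per group the deviations of replicate 2 mirror those of replicate 1, so this is a single comparison. The numbers were not taken to pair the libraries. With the replicate number as a block, limma called 7310 genes (3737 higher, 23.3% of all genes tested, and 3573 lower, 22.2%). Among these were 7 family genes (1 of them lower) and 42 pathway genes (24 higher, 18 lower). The fit with the block also has a single residual degree of freedom per gene. ERBB3 (0.25, adjusted p = 0.00201), HBEGF (0.22, 4.48e-05) and TGFA (-0.14, 0.00273) passed under the block.

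With each library left out in turn, calls ranged from 1301 to 3900 over all genes (872 to 2158 higher, 413 to 1742 lower), from 2 to 5 in the family (2 to 5 higher) and from 8 to 21 in the pathway lists (6 to 13 higher, 2 to 8 lower). The lowest total over all genes was without siAxl 1. The log2 fold change ranged from 0.22 to 0.29 for ERBB2, from 0.12 to 0.38 for ERBB3, from 0.16 to 0.28 for HBEGF, from 0.47 to 0.52 for BTC and from -0.00596 to 0.20 for AREG, whose sign changed without siAxl 1. A lone library of a group is assumed to vary like the other group. The difference in the EGFR share of the receptors lay between 8.85 and 12.2 percentage points. Adding the reads of AREGB left AREG as it was, since AREGB has none. The reads of ERBB4, BTC and AREG were too few to show a small change.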
